A study of Rattus norvegicus with 196 samples.

Results

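Gene expression in the raphe was set against that in the locus coeruleus (LC) of control rats, to ask which transcripts separate the serotonin centre of the brainstem from its noradrenaline centre when no drug has been given. The comparison used 8 of the 196 samples of the series, chosen by their labels alone: the 4 Sham samples of raphe and the 4 Sham samples of LC, with replicate numbers 1, 3, 4 and 5 in both regions. Sham rats, male Long-Evans animals that were 60 days old at the start, received water for 6 weeks. The Fluoxetine group received the serotonin reuptake inhibitor fluoxetine in the drinking water at 18 mg/kg per day for the same 6 weeks. It was used here to see whether the regional difference recurs in other animals and whether it differs between treatments. RNA was taken from frozen tissue punches, and each sample was a pool from 10 animals, so the spread between samples is a spread between pools and not between animals. A punch holds every cell type at the site, and in such bulk tissue fewer cells of a type and less RNA per cell cannot be told apart.

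The raphe nuclei hold most serotonin neurons of the brain, which make serotonin from tryptophan with the cofactor tetrahydrobiopterin and restrain their own firing through the receptor Htr1a. The LC, a small nucleus in the pons beside the fourth ventricle and close to the cerebellum, holds most noradrenaline neurons that project to the forebrain. These neurons make catecholamines from tyrosine through tyrosine hydroxylase (Th) and many of them also store the peptide galanin (Gal).

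Gene names were at hand for 1844 of 29188 transcripts, 6.32%, and all of the named ones had been called for fluoxetine against Sham in other tests of this series, so they are not a random sample of the transcriptome. The classical markers Tph2, Slc6a4, Fev, Dbh and Slc6a2 were not among them and were not analysed here. The labels of the regions were therefore checked with Gchfr, a regulator of tetrahydrobiopterin synthesis, for raphe and with Th and Gal for LC. The promoter sequence just upstream of each of these 3 genes is given because they are the named transmitter genes used for this check. The stretches are the 150 bases before the annotated start in RefSeq (rat build GRCr8), 5′ to 3′ on the strand of the gene.

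Th (chr1:207508219-207508368, minus strand): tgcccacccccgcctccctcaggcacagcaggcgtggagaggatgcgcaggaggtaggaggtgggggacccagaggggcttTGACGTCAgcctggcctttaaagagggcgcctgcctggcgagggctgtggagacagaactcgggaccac
Gal (chr1:210084573-210084722, minus strand): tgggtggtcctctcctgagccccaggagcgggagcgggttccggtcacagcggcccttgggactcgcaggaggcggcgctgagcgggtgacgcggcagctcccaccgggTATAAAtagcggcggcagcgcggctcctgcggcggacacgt
Gchfr (chr3:126611742-126611891, plus strand): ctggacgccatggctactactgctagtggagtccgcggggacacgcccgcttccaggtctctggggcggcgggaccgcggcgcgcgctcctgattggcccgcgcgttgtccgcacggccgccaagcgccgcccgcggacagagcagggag

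Capitals mark the 2 motifs that were searched on both strands, the cyclic AMP response element TGACGTCA and the TATA box TATAAA, which do not overlap each other here. The element stood 69 to 62 bases before the start of Th, and the TATA box 41 to 36 bases before that of Gal. Over the 250 bases before the start, TGACGTCA was found in 1.59% and TATAAA in 12.9% of 33469 RefSeq promoters. Neither was found in the stretch shown for Gchfr. A match of letters is not evidence of a bound factor.

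Between 6747946 and 13918162 reads per raphe sample and between 7372372 and 16434775 per LC sample were counted on transcripts. Raphe pools had more reads than their LC partners in 2 of 4 pairs (exact paired permutation test, two-sided p = 0.625, where 0.13 is the smallest p that 4 pairs can give, so that this test cannot reach 0.05). Other measures of the libraries moved with the region. The 50 most abundant transcripts took a mean of 39.0% of the reads in raphe and 47.0% in LC, and 33.0% and 38.1% of the reads fell outside annotated features, with LC higher in 4 of 4 pairs for both. Ambiguous reads made up 7.02% in raphe and 5.42% in LC, with raphe higher in 4 of 4 pairs. Each of these 3 differences had the smallest p that the test can give, and their part in the results was not tested. The libraries of replicate 3 stood apart from the others in both regions: 2 unnamed transcripts took 58.9% of the reads of LC replicate 3 and 38.7% of those of raphe replicate 3, and the 2 most abundant transcripts took 9.61% to 20.0% in the other 6 libraries. Levels below are CPM, read counts scaled to a common library size with TMM factors, which correct for such dominant transcripts. They are not corrected for transcript length, so they are compared between samples and not between genes. Log2 fold changes (log2FC) are raphe against LC, so positive values are higher in raphe, and ± on them is the standard error. Adjusted p-values come from edgeR's quasi-likelihood test with the replicate number as a block and Benjamini-Hochberg adjustment over all transcripts tested, and a call needed a log2FC of at least 0.32 in size with an adjusted p of at most 0.1.

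Of 13029 transcripts tested, 802 (6.16%) were called higher in raphe and 1005 (7.71%) higher in LC, 13.9% in all. Among the 1826 tested transcripts with a name the shares were 10.5% and 8.65%, 19.2% in all. The gene lists below hold named transcripts only, so these higher shares are the like comparison for their counts. The 4 raphe pools lay above the 4 LC pools without overlap for 304 transcripts (2.33%), and below them for 386 (2.96%). The LC side held the larger changes. A log2FC beyond 3 was reached by 50 of the transcripts called higher in LC and by 11 of those called higher in raphe. The median over all tested transcripts was -0.01. All 4 pairs went the same way for 762 of the 802 and 936 of the 1005. The count rested on the pairing, since without the replicate block 60 transcripts were called, all among the 1807. It also rested on replicate 3, without which 635 of 13552 were called (4.69%), 210 higher in raphe (1.55%) and 425 higher in LC (3.14%), and 590 of them were shared with the 1807.

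Gchfr and Qdpr, 2 genes of tetrahydrobiopterin metabolism, were higher in raphe. Gchfr, which binds GTP cyclohydrolase 1 and sets its feedback control, stood at 122, 181, 77.9 and 76.5 CPM in raphe replicates 1, 3, 4 and 5 and at 20.2, 15.1, 6.32 and 6.35 CPM in the LC replicates of the same numbers. The lowest raphe pool lay well above the highest LC pool. This was a 9.92-fold difference (log2FC 3.31 ± 0.21, adjusted p = 3.95e-06), the largest rise among named transcripts by the rule used, and it was called under each setting tried, the fit without the replicate block included. Qdpr, which recycles the spent cofactor, stood at 805, 2227, 469.6 and 306 CPM in raphe and at 481, 649, 271 and 192 CPM in LC. Raphe was higher within each of the 4 pairs although the groups overlapped (log2FC 0.99 ± 0.22, adjusted p = 0.0181). Qdpr is also made by oligodendrocytes, whose listed genes were higher in raphe too (17 of 24 called, median log2FC 0.79), and their part in the difference of Qdpr was not tested. The other cofactor enzymes with a named transcript did not pass the test, Pts with a log2FC of 0.21 and Spr with -0.29. Of the serotonin neuron list, 4 of 16 genes were named and tested, and 2 were called, both higher in raphe, where 6.16% of all tested transcripts were called in that direction, with a list median of 0.60.

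The serotonin autoreceptor Htr1a, the only named gene of 13 serotonin receptors, was too low for the filter on low counts. It was counted at 57, 20, 36 and 10 reads in raphe and at 0, 4, 8 and 5 reads in LC, or 3.18, 5.31, 3.11 and 0.806 CPM against 0, 1.44, 0.712 and 0.474 CPM. Raphe was higher in all 4 pairs, but the groups overlapped and the Sham comparison gave no test of it. Where no read was seen, 3 reads are the upper limit that a count of 0 allows, which is 0.161 CPM in LC replicate 1. This limit covers counting error only.

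**Figure D1:**
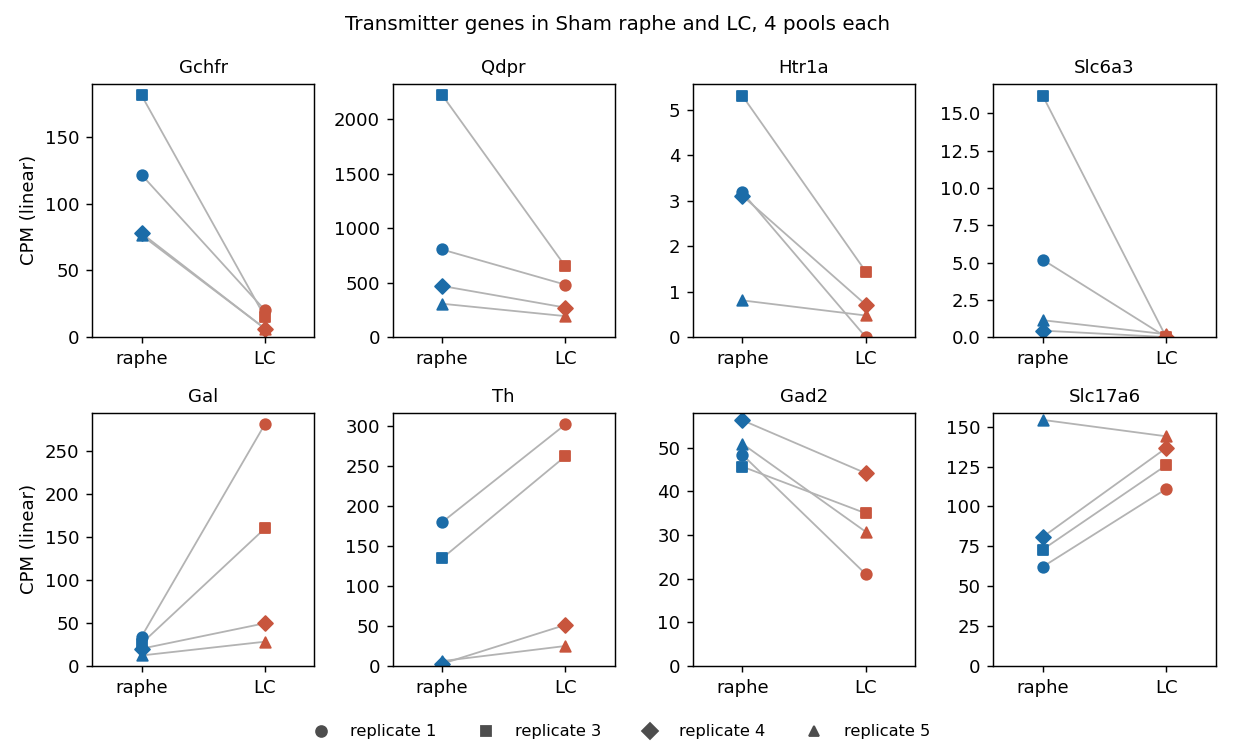
CPM on linear axes, each panel with its own scale, of 8 transmitter genes in the 4 Sham raphe pools (blue) and the 4 Sham LC pools (red), with a grey line between pools of the same replicate number. Gchfr and Gad2 do not overlap between the regions, Gal and Th are higher in LC within each pair, and the Th of raphe replicates 1 and 3 lies far above that of replicates 4 and 5.

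Both named genes of the 13 on the noradrenaline neuron list were called higher in LC, where 7.71% of all tested transcripts were called in that direction. Gal stood at 281, 159.6, 49.6 and 28.2 CPM in LC replicates 1, 3, 4 and 5 and at 34, 26, 20 and 12.2 CPM in raphe. LC was higher in each pair, with an overlap between LC replicate 5 and raphe replicate 1 (log2FC -2.06 ± 0.29, adjusted p = 0.00102). Th, the rate-limiting enzyme of catecholamine synthesis, stood at 302, 262, 51.3 and 24.9 CPM in LC and at 179, 134, 2.67 and 6.05 CPM in raphe. It too was higher in LC within each pair, while the groups overlapped widely (log2FC -1.81 ± 0.42, adjusted p = 0.0221).

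Raphe pools did not lack Th evenly. In replicates 1 and 3 the raphe level of Th was within that of LC, and in replicates 4 and 5 it was near the bottom of the scale. Slc6a3, the dopamine transporter, was unevenly spread in the same direction. It was counted at 93, 61, 5 and 14 reads in raphe replicates 1, 3, 4 and 5 and at 0, 0, 0 and 2 reads in LC, and it failed the low-count filter. Ucn, which encodes the stress peptide urocortin, was counted at 223 and 61 reads in raphe replicates 1 and 3, at 2 and 4 reads in replicates 4 and 5, and at 0 reads in all 4 LC pools. Whether the raphe punches of replicates 1 and 3 reached neighbouring cells with these transcripts was not tested. Drd2, the dopamine D2 receptor, was called higher in raphe (10.3 ± 2.34 CPM against 6.25 ± 2.17 CPM, mean ± SD, n = 4, log2FC 0.79 ± 0.26, adjusted p = 0.0826) and lost the call without any 1 of the 4 replicates. Slc6a3 and Drd2 were the 2 named genes of the 8 dopamine markers, and none of the 9 adrenergic receptors had a named transcript.

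Neuropeptide genes differed in both directions. Of 40 genes on the list of neuropeptides and their processing, 17 were named with 18 transcripts, 14 transcripts were tested, and 6 were called higher in raphe and 2 higher in LC, with a median log2FC of 0.37, beside 6.16% and 7.71% of all tested transcripts. Without replicate 3, 2 were called higher in raphe and none in LC. The list median was 0.16 without replicate 1 and 0.050 with only replicates 4 and 5. Cartpt, which encodes the CART peptide, stood at 125, 359.5, 14.0 and 48.5 CPM in raphe and at 19.9, 47.6, 19.8 and 4.55 CPM in LC. It was higher in raphe in 3 of 4 pairs (log2FC 2.20 ± 0.49, adjusted p = 0.0184). Cck, cholecystokinin, was higher in raphe by a log2FC of 1.81 ± 0.37 (adjusted p = 0.0126), with 83.6 CPM in raphe replicate 3 against 13.7 CPM in its LC partner and near-equal levels of 3.62 and 3.65 CPM in replicate 4. Neither kept its call without replicate 3, where the adjusted p was 0.17 for Cartpt and 0.174 for Cck. In the Fluoxetine pools both were called higher in raphe, in 4 of 4 pairs, by a log2FC of 2.11 for Cartpt (adjusted p = 0.088) and 1.24 for Cck (0.089). Without replicate 3 of Fluoxetine, Cartpt lost this call too (log2FC 1.58, adjusted p = 0.214) and Cck did not (1.56, 0.035).

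Vip, vasoactive intestinal peptide, was low but did not overlap, at 7.42, 4.25, 4.57 and 5.97 CPM in raphe and 2.30, 1.08, 2.31 and 1.23 CPM in LC (log2FC 1.67 ± 0.34, adjusted p = 0.0112). Penk, the enkephalin precursor, averaged 314 ± 127 CPM in raphe and 163 ± 87.6 CPM in LC (log2FC 1.06 ± 0.24, adjusted p = 0.0194), and lost the call without replicate 3 (adjusted p = 0.129). Chga, a granin of dense-core vesicles, and Pcsk2, a prohormone convertase, were called higher in raphe by 0.92 and 0.62. Sst, the somatostatin precursor, differed by less than the spread between pools (log2FC -0.12, adjusted p = 0.837). Avp, Oxt, Npvf and Ucn were not tested.

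The 2 genes of the neuropeptide list called higher in LC are best known from other nuclei. Gal, a peptide gene as well, stood on the noradrenaline list and not on this one. Rln3, relaxin-3, is the marker of the nucleus incertus, which lies near the LC in the pons. It stood at 30.1, 24.9, 44.1 and 15.3 CPM in LC and at 23.2, 15.9, 0.345 and 0.967 CPM in raphe (log2FC -2.31 ± 0.74, adjusted p = 0.0771), so that raphe replicates 1 and 3 were again close to their partners. Its call was lost without replicate 3 (adjusted p = 0.15) and without replicate 5 (0.2). Hcrt, the orexin precursor of lateral hypothalamic neurons, was at 96.2 CPM in LC replicate 3 and between 1.04 and 16.2 CPM in the other LC pools (log2FC -2.40 ± 0.52, adjusted p = 0.0153). The Hcrt call was lost without replicate 3 (adjusted p = 0.161).

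Genes of GABA and glutamate neurons differed in both directions. Gad2, which makes GABA, stood between 45.6 and 56.3 CPM in raphe and between 21.0 and 44.1 CPM in LC without overlap (log2FC 0.68 ± 0.18, adjusted p = 0.0369), a call lost without replicate 1 (adjusted p = 0.133) or replicate 3 (0.107). Slc17a6, the vesicular glutamate transporter of brainstem neurons, averaged 92.5 ± 41.8 CPM in raphe and 129 ± 14.3 CPM in LC and was called higher in LC, although raphe replicate 5 held the highest level of all at 154 CPM (log2FC -0.57 ± 0.19, adjusted p = 0.0845). That call was lost without replicate 1, 3 or 4. Slc5a7, the choline transporter and the only named gene of 6 cholinergic markers, was not called (log2FC -0.74 ± 0.28, adjusted p = 0.12).

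Receptor subunits split by gene. Of 7 tested genes of GABA and glycine signalling (24 on the list), Gad2 and the GABA-A subunit Gabrb2 were called higher in raphe, and Gabrd, the delta subunit abundant in cerebellar granule cells, was called higher in LC by a log2FC of -2.54 ± 0.32 (adjusted p = 0.000488), against a list median of 0.46, beside 6.16% of all tested transcripts called higher in raphe and 7.71% in LC. The Gabrb2 call (log2FC 0.99, adjusted p = 0.0805) was lost without replicate 1 (0.134), replicate 4 (0.215) or replicate 5 (0.199), and without replicate 3 the list held 1 call in each direction. Of 8 tested glutamate genes (28 on the list), 3 were called in each direction around a median of 0.20, beside 6.16% and 7.71% of all tested transcripts, and 1 in each direction without replicate 3. The metabotropic receptor Grm3 (0.84), the delta receptor Grid1 (0.87) and the NMDA subunit Grin3a (0.95) were higher in raphe. The NMDA subunit Grin2c (-0.99), Grm4 (-0.70) and Slc17a6 were higher in LC.

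Of 17 tested voltage-gated channel genes (44 on the list), 2 were called higher in raphe and 1 in LC, a share close to the 19.2% called among all named transcripts, and the median log2FC was 0.22. Without replicate 3, 1 was called higher in raphe and none in LC. The list median was 0.075 without replicate 1. Kcns3, a silent potassium channel subunit, stood at 15.4, 11.7, 30.5 and 32.6 CPM in raphe and at 5.03, 3.60, 5.96 and 9.20 CPM in LC, with no overlap (log2FC 1.89 ± 0.22, adjusted p = 0.000253). Kcna2, a channel of the axon, was higher in raphe by 1.36 ± 0.37 and Kcnab3, a beta subunit, higher in LC by -0.61 ± 0.19 (adjusted p = 0.0452 and 0.0771). Most channels of the list, among them Hcn2 and Scn8a, did not pass the test. Tcf7l2, the only named gene of 33 transcription factors of segment identity, and Fos, the only immediate early gene tested of 16 on that list, were not called (log2FC -0.18 and 0.04).

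The named genes with the largest differences, Ttr, Mfrp, Kcnj13 and Sostdc1, belong to the choroid plexus and the ependyma, the epithelia that line the ventricles. Of 20 genes on this list, 13 were named and tested, 12 were called higher in LC and 1 higher in raphe, and the median log2FC was -1.99, where 7.71% of all tested transcripts were called higher in LC. Ttr, the thyroxine carrier that the choroid plexus secretes, stood at 19289, 75126, 3399 and 16572 CPM in LC and at 38.3, 74.3, 105 and 406 CPM in raphe. No LC pool came near a raphe pool (log2FC -7.29 ± 0.90, adjusted p = 0.000463), and Ttr alone took 2.19%, 2.51%, 0.518% and 2.05% of the reads on transcripts in the 4 LC pools.

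The other epithelial genes of the plexus followed. Mfrp, a membrane frizzled-related protein, was at 23.3 to 179.7 CPM in LC and at 0.531 to 2.02 CPM in raphe (log2FC -6.17 ± 0.52). Kcnj13, the potassium channel Kir7.1, was at 36.0 to 194 CPM in LC and at 0.112 to 5 CPM in raphe (-5.86 ± 0.46). Sostdc1, a BMP antagonist, was at 17.3 to 71.3 CPM in LC and at 0 to 2.50 CPM in raphe (-5.57 ± 0.48). All 3 were without overlap, at adjusted p-values of 2.23e-05, 1.45e-05 and 2.73e-05. Krt8, an epithelial keratin, and the genes of motile cilia Mns1, Tekt4, Drc1, Ccdc39 and Tekt1 were also called higher in LC, by -2.78, -2.12, -1.99, -1.95, -1.17 and -0.99. Car14, a carbonic anhydrase, was the exception and was higher in raphe by 0.71 (adjusted p = 0.0336). The same list summed to 3634 to 75563 CPM per LC pool and to 149 to 552 CPM per raphe pool, with Ttr as its most abundant member, and no member was at 0 in all 8 pools. Without replicate 3, 11 members were called higher in LC and none in raphe. Without the replicate block, 4 members were called higher in LC and none in raphe.

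Genes of cerebellar neurons were also higher in LC. Of 15 genes, 8 were named and tested, 7 were called higher in LC and none in raphe, where 7.71% and 6.16% of all tested transcripts were called, with a median log2FC of -2.30, and the list summed to 455 to 2413 CPM in LC and to 144 to 605 CPM in raphe. Gabra6, the GABA-A subunit of granule cells, stood at 30.3, 46.1, 49.7 and 7.58 CPM in LC and at 3.12, 7.16, 0.690 and 0.484 CPM in raphe (log2FC -3.83 ± 0.42, adjusted p = 0.000174). The LC pools all lay above the raphe pools. Neurod1, a transcription factor of granule cells, was at 7.96 to 96.6 CPM in LC and at 0.726 to 14.3 CPM in raphe and was higher in LC in each pair (-3.57 ± 0.27, adjusted p = 1.17e-05). The granule cell peptides Cbln3 (-2.75) and Cbln1 (-2.23), the Purkinje cell gene Ppp1r17 (-2.36), the calcium buffer Pvalb (-1.69) and the receptor Grm4 (-0.70) were called too, whereas Rora was not (-0.36). Pvalb, the most abundant member in CPM, is also made by large brainstem neurons. Without the replicate block, 1 of the list was called higher in LC and none in raphe.

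Neither the ventricular nor the cerebellar genes are part of the noradrenaline neuron, and both lists moved with the region in the same pools as Gal and Th. Within LC, replicates 1 and 3 were highest in Gal, Th and the summed cerebellar list, a sum made up mostly of Pvalb, whereas Gabra6 was highest in replicate 4. The part that neighbouring tissue in the LC punches played in the LC calls was not tested.

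**Figure D2:**
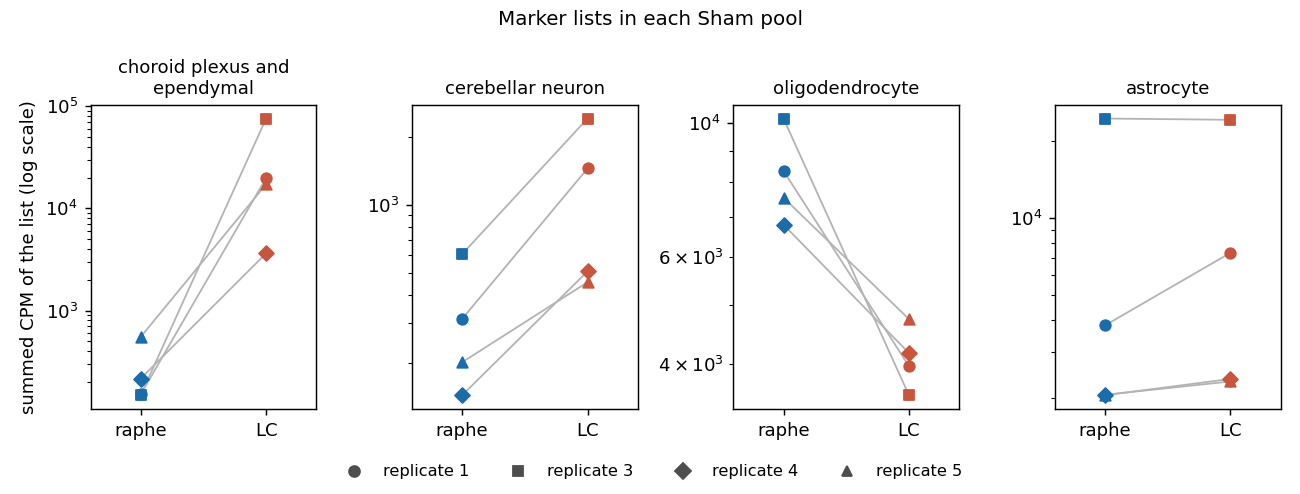
Summed CPM of 4 marker lists in each Sham pool, on log axes that differ between panels, with a grey line between pools of the same replicate number. The ventricular and cerebellar lists are higher in LC in all 4 pairs, the oligodendrocyte list is higher in raphe in all 4, and the astrocyte list differs far more between replicates than between regions.

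Oligodendrocyte genes were higher in raphe. Of 34 genes, 24 were named and tested and 17 were called, all higher in raphe, where 6.16% of all tested transcripts were called in that direction, and 23 of the 24 had a positive log2FC, with a median of 0.79. The list summed to 6798 to 10189 CPM in raphe and 3547 to 4742 CPM in LC, without overlap. Apod, a lipid carrier and the most abundant of the list in CPM, stood at 4485, 5823, 2698 and 3711 CPM in raphe and at 1575, 1356, 1699 and 2080.5 CPM in LC (log2FC 1.28 ± 0.27, adjusted p = 0.0141). Its lowest raphe pool was above its highest LC pool. Evi2a did not overlap either, at 126 to 225 CPM against 35 to 110.4 CPM (1.20 ± 0.18, adjusted p = 0.00199). The tubulin-binding Tppp (2.64-fold), the receptor Erbb3 (2.68-fold) and the gap junction gene Gjb1 (1.99-fold) were the other 3 of the 5 with the largest changes, and the lineage factor Sox10 was called at 0.59. Without replicate 3, 6 of the list were called higher in raphe, and without the replicate block none was called.

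Astrocyte genes were mixed and leaned to LC. Of 15 tested (23 on the list), 6 were called higher in LC and 2 in raphe, with a median of -0.35, beside 7.71% and 6.16% of all tested transcripts. Fxyd1, a regulator of the sodium pump, was the largest on the LC side (log2FC -1.77 ± 0.23, adjusted p = 0.000555), with 309 and 353 CPM in LC replicates 1 and 3 and 44.0 and 36.0 CPM in replicates 4 and 5. Metrn, Mt1 and Agt were called higher in LC by -1.27, -1.20 and -0.78. Mt1 belongs to the metallothioneins, near-identical genes between which reads can be split. The potassium channel Kcnj10 (1.28) and the GABA transporter Slc6a11 (0.94) were called higher in raphe. Both calls were lost without replicate 1 (adjusted p = 0.13 and 0.122) and without replicate 3 (0.263 and 0.237), and that of Kcnj10 also without replicate 4 (0.105). Without replicate 3, 5 of the list were called higher in LC and none in raphe. No member was called in either direction without the replicate block. The summed list, led by Apoe, was at 24348 and 24075 CPM in replicate 3 of raphe and LC and at 2044 to 7313 CPM in the other pools.

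The counts that follow stand beside 6.16% of all tested transcripts called higher in raphe and 7.71% in LC. Of 9 tested microglia genes (17 on the list), 3 were called higher in raphe and none in LC, with a median of 0.22: the adhesion ligand Selplg (1.75), the chemokine receptor Cx3cr1 (1.15) and the protease Lgmn (0.66). Of 11 tested vascular and fibroblast genes (19 on the list), 2 were called, both higher in LC. Ogn, a proteoglycan of the meninges and connective tissue, stood at 34.8, 39.6, 13.3 and 19.1 CPM in LC and at 5.08, 5.57, 5 and 4.76 CPM in raphe (log2FC -2.24 ± 0.26, adjusted p = 0.000269), and Aebp1 differed by -1.28. Of 4 tested forebrain projection neuron genes (10 on the list), 3 were called higher in LC, Ppp1r1b by -1.33, Adora2a by -1.07 and Nrgn by -0.88. Nrgn was higher in LC in 3 of 4 pairs. Scaled over all Sham libraries, LC held 48.3, 3.82 and 32.8 CPM of these genes, and the highest Sham region held 404, 134 and 1158 CPM. Without replicate 3, 2 microglia genes were called higher in raphe and 2 forebrain genes higher in LC. Of 4 tested genes of large sensory and motor neurons (12 on the list), Sncg, gamma-synuclein, was higher in raphe (1.14 ± 0.17, adjusted p = 0.00145), Pvalb higher in LC, and the neurofilament Nefh not called (0.13).

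**Figure D3:**
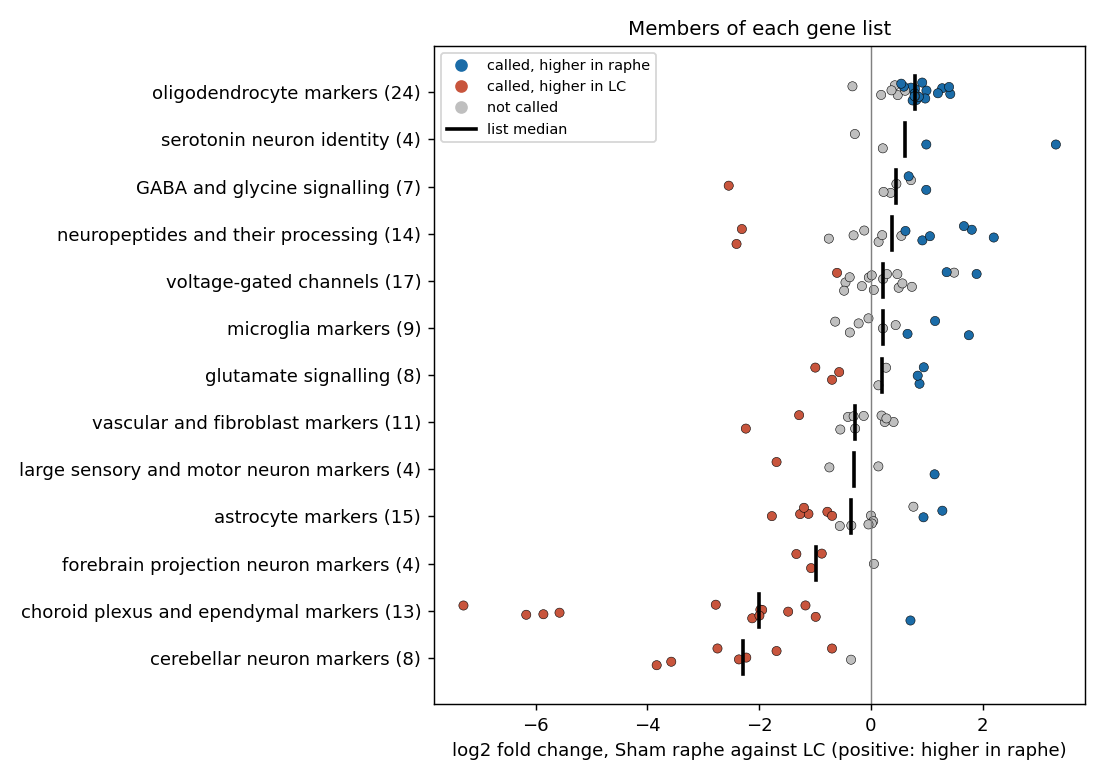
Log2FC of raphe against LC for each tested transcript of the 13 gene lists with at least 4 tested members (points, number tested in brackets) and the median of each list (black bar), on a linear axis where positive values are higher in raphe. Cerebellar and ventricular genes lie furthest towards LC with medians of -2.30 and -1.99, and oligodendrocyte genes furthest towards raphe with 0.79.

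Among named transcripts outside these lists that averaged at least 5 CPM in the higher region and went the same way in all 4 pairs, those with the largest changes had less familiar roles in these nuclei. Towards LC they were Scgb1c1, a secretoglobin, at 9.88 to 74.9 CPM in LC and 1.06 to 2.82 CPM in raphe (log2FC -4.11 ± 0.39, adjusted p = 7.37e-05), the growth factor Mdk (-2.98 ± 0.31) and Nt5dc2 (-2.89 ± 0.31). Pde6h (-3.48 ± 0.44), with a mean of 4.35 CPM in LC, fell under that floor. Scgb1c1 and Nt5dc2 did not overlap between the regions. Towards raphe they were the kinase Stk32b (2.46 ± 0.38), the orphan receptor Gpr165 (2.05 ± 0.43), Ndrg3 (1.76 ± 0.37), the neuronal differentiation gene Cend1 (1.72 ± 0.39), the retinoic acid binding protein Crabp1 (1.69 ± 0.22), the copine Cpne7 (1.68 ± 0.27) and Tmem255a (1.62 ± 0.44). Of these, Stk32b, Gpr165 and Cpne7 did not overlap. Stk32b was at 2.92 to 9.32 CPM in raphe and at 0.482 to 2.31 CPM in LC.

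Several unnamed transcripts separated the regions further than Gchfr. ENSRNOT00000015944 stood at 254, 195, 74.9 and 72.6 CPM in raphe and at 1.02, 0.721, 2.31 and 2.18 CPM in LC (log2FC 6.23 ± 0.46, adjusted p = 9.53e-06). ENSRNOT00000028323 was at 5.32 to 20.9 CPM in raphe and was listed at 0 in 2 LC pools (log2FC 7.46 ± 0.49, adjusted p = 4.54e-06). Towards LC, ENSRNOT00000022285 stood at 10.6 to 34.7 CPM against at most 0.265 CPM in raphe and ENSRNOT00000055270 at 1.78 to 14.6 CPM against at most 0.0863 CPM (log2FC -7.80 and -6.86). The fitted values of the last 3 depend on the prior count, since the lower region held a few reads at most.

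The level of these genes was then placed among all 25 Sham regions, with CPM scaled over all Sham libraries together and regions named as in the labels. Raphe had the highest mean for Gchfr (115 ± 46.9 CPM, SD, n = 4), ahead of the PAG (75.0 CPM), with a median of 6.09 CPM over the 23 regions other than raphe and LC. The mean of the PAG lay within 1 SD of that of raphe, so this order does not hold beyond the spread between pools. Raphe was also first for Apod (4204 CPM, next SNT with 3524 CPM), Crabp1, Sncg and Gjb1, and it ranked 18 of 25 for Vip. Its rank for Th was 3 and fell to 4 without replicate 3.

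LC had the highest mean for Gal (131 ± 126 CPM), ahead of the MPOA (96.6 CPM), and the second highest for Th (160.3 ± 148 CPM), behind the VTA (306 CPM). With SDs this wide neither order holds beyond the spread between pools. LC was first for Rln3 (28.0 CPM), for which raphe came next with 10.3 CPM and the PAG followed with 3.62 CPM. It was first for Ttr, Mfrp, Kcnj13, Sostdc1, Scgb1c1, Mdk, Nt5dc2 and Pvalb as well. For these 8 genes in LC, and for Apod, Crabp1, Sncg and Gjb1 in raphe, the next region lay within 1 SD of the mean, so the first rank does not hold beyond the spread between pools. For Ttr the PVN came next (27349 CPM in LC and 11958 CPM in the PVN). For Gabra6, Neurod1 and Cbln3 the PAG was first and LC second, with 92.7 and 32.6 CPM for Gabra6 against a median of 0.202 CPM over the 23 regions. Without replicate 3 the rank of LC for Neurod1 was 4. LC ranked last of the 25 for Vip, Cx3cr1, Ndrg3, Tmx2 and Slc3a1, among others.

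**Figure D4:**
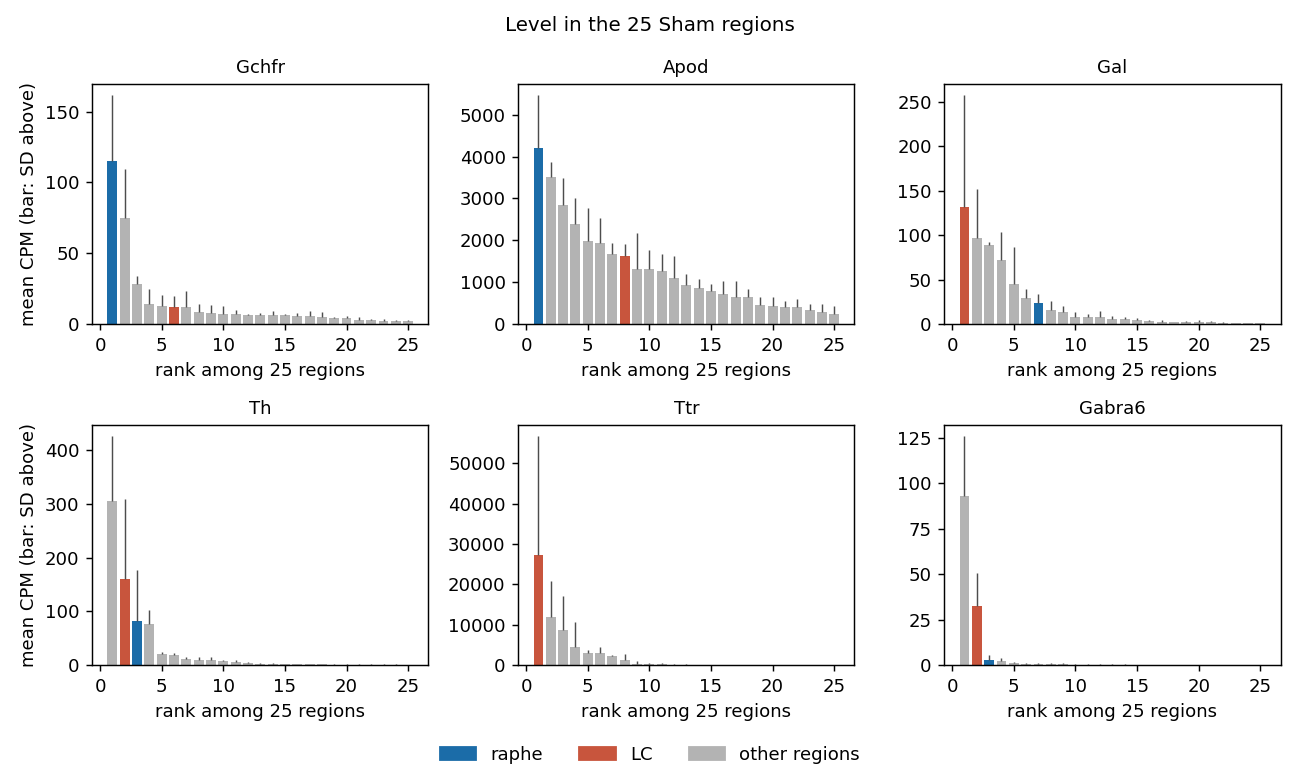
Mean CPM with SD above the bar for 6 genes in the 25 Sham regions, sorted from highest to lowest within each panel, on linear axes, with raphe in blue, LC in red and other regions in grey. Raphe is first for Gchfr and Apod, LC is first for Gal and Ttr, and LC is second for Th and Gabra6.

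Fluoxetine pools gave a second set of animals for the same contrast, sharing replicate numbers but no samples with Sham. The library labelled LC replicate 3 did not look like the other LC pools of this group. It held 4.74 CPM of Gal (7 reads), where the others held 130 to 224 CPM, 17.6 CPM of Th against 48.5 to 171 CPM, and 311 CPM of Ttr against 5004 to 7050 CPM. This library had 3367365 reads on transcripts, the fewest of the Fluoxetine raphe and LC libraries, and its raphe partner had 5501164. The part of depth in these values and in the Fluoxetine calls was not tested. The log2 ratios of the replicate 3 pair correlated with those of the 4 Sham pairs at -0.157 to -0.11 (Pearson's r). This was across 13029 transcripts, which are not independent replicates, and Sham pairs correlated with each other at 0.404 to 0.588. Fluoxetine pair 1 also lay below that range, at 0.111 to 0.259, and pairs 4 and 5 were at 0.376 to 0.659. Values of single genes are given with all 4 pairs unless stated otherwise. Counts over all transcripts and summaries of lists are given with and without the pair of replicate 3. Since it was set aside for these values, what is given without it is a description.

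With all 4 Fluoxetine pairs, 92 of 12142 transcripts were called (0.758%), 41 higher in raphe (0.338%) and 51 higher in LC (0.42%). Without replicate 3 the number was 209 of 12826 (1.63%), 58 higher in raphe (0.452%) and 151 higher in LC (1.18%). None of the transcripts called in Sham was called in the opposite direction in Fluoxetine by either fit. Of those called higher in LC in Sham, 78.9% of 916 had the same sign in Fluoxetine. Of those called higher in raphe, the share was 60.2% of 776. The sign was shared by 54.5% of 10335 transcripts not called in Sham. Without replicate 3 the shares were 84.8% of 984, 70.5% of 782 and 57.2% of 10707, in the same order, and they are no support, since that pair was set aside partly for its correlation with Sham.

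Of the 2 serotonin list genes called in Sham, Gchfr was called in Fluoxetine and Qdpr was not (log2FC 0.25, adjusted p = 0.737). Gchfr stood at 248, 308, 95.7 and 107 CPM in Fluoxetine raphe and at 14.9, 21.0, 14.1 and 14.1 CPM in Fluoxetine LC (log2FC 3.39 ± 0.23, adjusted p = 1.18e-05). No pools overlapped. Th (-2.99, adjusted p = 0.045), Ttr (-7.28, 0.00849), Kcnj13 (-6.73, 1.43e-06), Ogn (-2.05, 0.014), Vip (3.06, 0.00107), Crabp1 (1.47, 0.00527) and Cpne7 (1.65, 0.0168) were also called with all 4 pairs, as were Scgb1c1 (-3.44, 0.000302), Nt5dc2 (-2.13, 0.0314), Drd2 (1.15, 0.0962), Cartpt and Cck. Gabra6 (-0.97, adjusted p = 0.643) and Neurod1 (-0.58, 0.738) were not called. Several genes called higher in raphe in Sham had a negative log2FC here and were not called. Among them were Stk32b (-0.32), Tmem255a (-0.79), Ndrg3 (-0.55), Cend1 (-0.18), Kcna2 (-0.77) and Kcnj10 (-1.04). Gal was not called (-1.39, adjusted p = 0.518). Its log2FC without replicate 3 was -2.15, which is given with no test, since low Gal was among the reasons to set that pair aside. Slc5a7, not called in Sham, was called higher in LC here (-1.63, adjusted p = 0.00551). Without replicate 3, Cartpt was no longer called (1.58, adjusted p = 0.214). Mdk, Penk, Kcns3 and Sncg were not called with all 4 pairs. Their log2FC without that replicate was -2.28, 1.03, 1.01 and 0.96. These values are given with no test, since that pair was set aside partly for its correlation with Sham.

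Of all tested transcripts, 0.758% were called in Fluoxetine against 13.9% in Sham, and the difference between treatments was tested by transcript and not by list. None of the 24 oligodendrocyte genes was called, with a median log2FC of 0.23, and without replicate 3 there was 1 call and a median of 0.49. Of the 8 cerebellar genes, 2 were called higher in LC (Cbln1 and Pvalb), with a median of -0.62, or -0.87 without replicate 3. Of the ventricular list, 2 of 10 tested were called higher in LC with all pairs, beside 0.42% of all tested transcripts. Without replicate 3 it was 5 of 12, beside 1.18%. The list values without replicate 3 are no support, since low Ttr and the correlation with Sham were among the reasons to set that pair aside.

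**Figure D5:**
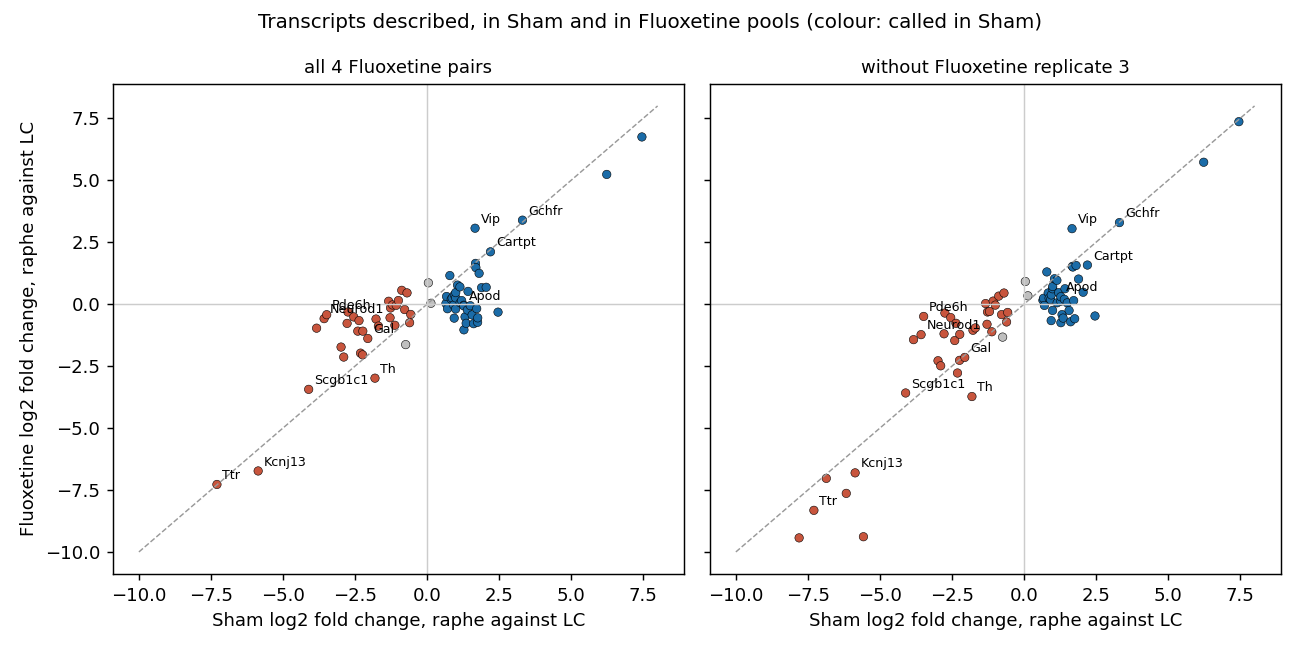
Log2FC of raphe against LC in Sham (horizontal) and in Fluoxetine (vertical) for the transcripts described, with all 4 Fluoxetine pairs on the left and without replicate 3 on the right, on linear axes, with the dashed line at equal values. Colour shows the Sham call, blue for raphe, red for LC and grey for no call. Gchfr, Kcnj13 and Scgb1c1 lie near the line in both panels, and Apod and Neurod1 lie closer to 0 in Fluoxetine than in Sham.

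Whether the regional difference itself differed between treatments was tested as an interaction over all 16 samples. Of 13690 transcripts, 12 were called (0.0877%), 5 of them named. The difference was towards raphe in Fluoxetine for 4 (0.0292%) and towards LC for 8 (0.0584%). No named gene of the serotonin, noradrenaline, ventricular, cerebellar or oligodendrocyte lists was among them. The other 7 calls had no gene name and could not be placed on or off a list. The adjusted p was 0.937 for Gchfr, 0.58 for Th, 0.754 for Gal and 0.213 for Apod. A value above the threshold does not show that the difference was the same under both treatments. The interaction calls were not stable, with 0 calls when only the Fluoxetine pair of replicate 3 was left out and 0 without the replicate block, where 1710 transcripts had an unadjusted p under 0.05 in the full fit with edgeR and DESeq2 called 248.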

How the data were processed

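The authors deposited raw counts of 76 bp paired-end reads per Ensembl transcript (29188 per file), made with STAR and HTSeq on rat build rn5 and not normalised. Tool versions, annotation release and strand setting are not given in the sources used here, so a gene and its antisense partner cannot be told apart. The kit is for stranded total RNA, while the labels call the molecule polyA RNA. The last 5 summary lines of each file were dropped. Reads outside annotated features made up 20.8% to 44.9% and ambiguous reads 2.25% to 9.45% of the reads listed per Sham raphe or LC library, and no reads were listed as not unique. Reads shared by transcripts of a gene fall under ambiguous, so genes with several transcripts lose more reads. The counts alone limit precision for transcripts with few reads.

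Gene names came from the study's sheet of transcripts called in several regions (1844 names, 1798 matched to RefSeq symbols), whose fold changes were not used. Groups came from the sample titles. Counts were fitted in R 4.3.3 with edgeR 4.0.16: TMM, filterByExpr (minimum count 10, minimum total 15), replicate block and quasi-likelihood test. Standard errors are the absolute log2FC over the square root of F. The study's methods enter replicate numbers as batches, and deviations of same-numbered raphe and LC pools from their group means correlated at 0.658 to 0.803 (different numbers at -0.681 to 0.646, the highest for raphe 4 with LC 5), so numbers were taken as pairs. In simulated counts for the Sham comparison with 13029 transcripts, edgeR called 69 of 100 transcripts changed by a log2FC of 1, 93 of 100 changed by 2 and 12 of 12829 unchanged ones. The simulated counts took their spread from edgeR's own fitted trend and had the same replicate effects in both regions. These shares are therefore not error rates of the real comparison. Region levels used TMM over Sham libraries of at least 100000 reads, leaving out 1.

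The comparison, gene lists and tests were chosen with earlier results of these data known. Genes named are up to 5 called per list and direction, list genes that define a region or a neighbouring cell type, the 10 named transcripts per direction with the largest log2FC among those called with the same direction in all 4 pairs and a mean of at least 5 CPM in the higher region, and 2 unnamed transcripts per direction by the same measure. Other list members (Pts, Spr, Pcsk2, Sst, Rora, Sox10, Mns1, Tekt4, Drc1, Ccdc39, Tekt1, Hcn2, Scn8a, Tcf7l2) are named to complete their lists, and some list members are not reported here. Alternatives were no replicate block, leaving out each replicate, a limit of 0.05 on the adjusted p, DESeq2 1.42.0, RLE size factors, all transcripts kept whatever their counts, and, added after seeing the data, replicates 1 and 3 or 4 and 5 alone and the interaction without the Fluoxetine pair of replicate 3. Each treatment group had 40 animals in 4 pools of 10 for each region, so raphe and LC pools came from the same animals, and p-values measure the spread between pools. Figures were drawn with matplotlib 3.10.9.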

Additional observations from a re-analysis of the deposited data

Results flagged for a closer look

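Samples of a group that lay far from the other 3 were looked for in 178 groups of 4, of which 11 stood out, and chance gives about 1 in 20. In Sham LC, replicate 3 was the highest for Hcrt (96.2 CPM), Chga (149.9 CPM), Avp (5.40 CPM) and Oxt (9.37 CPM) and the lowest for Kcnab3 (7.93 CPM), and replicate 5 was the highest for Slc6a3 (0.190 CPM, 2 reads). In Sham raphe, replicate 3 was the highest for Tuba1c (1541 CPM) and Oxt (4.78 CPM), and replicate 1 the highest for Adora2a (4.13 CPM). LC replicate 1 had the most reads on transcripts of the 4 LC pools (16434775) and the lowest share of reads outside annotated features (22.8%).

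The regional difference of 5 named genes differed between Fluoxetine and Sham by the interaction test of edgeR with Benjamini-Hochberg adjustment. For Pde6h, an inhibitory subunit of the cone phosphodiesterase, the log2FC was -3.48 in Sham, where LC was higher in 4 of 4 pairs, and -0.42 in Fluoxetine, a difference of 3.10 (adjusted p = 0.0962). Tmx2, a thioredoxin-related membrane protein, was higher in raphe in 4 of 4 Sham pairs (log2FC 1.56) and in 2 of 4 Fluoxetine pairs (-0.43), a difference of -1.98 (adjusted p = 0.0771). Slc3a1, an amino acid transporter subunit, changed from 1.32 to -0.51, a difference of -1.81, Acat2, a thiolase of cholesterol synthesis, from 1.5 to -0.06, a difference of -1.54, and Tuba1c, one of several near-identical tubulins, from 1.28 to -0.04, a difference of -1.30 (adjusted p = 0.0962 for each of the 3). Without the Fluoxetine pair of replicate 3 the differences were 2.97, -1.84, -1.76, -1.47 and -1.18 in the order given, and none passed the threshold (adjusted p of 0.213 to 0.304).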

How the results depend on the processing

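In Sham, 60 transcripts were called without the replicate block (12 higher in raphe and 48 in LC), 1017 at an adjusted p of at most 0.05 (427 and 590), 1294 with only replicates 4 and 5 (652 and 642, so LC no longer led), and 2107 with only 1 and 3 (992 and 1115). This division was chosen after seeing the data, follows the Th levels of the raphe pools, and supports nothing. Leaving out 1 replicate gave 635 to 1461 (210 to 677 higher in raphe, 425 to 833 in LC), the fewest without replicate 3. In Fluoxetine, 11 were called without the block (8 and 3), 177 with DESeq2 (74 and 103), 494 with no low-count filter (186 and 308), 677 with only replicates 4 and 5 (303 and 374), and 71 with only replicates 1 and 3 (46 and 25). Leaving out 1 replicate gave 42 to 209 there (24 to 58 and 18 to 151). Interaction calls numbered 0 without the block, 248 with DESeq2, 2 with RLE size factors, 1 at an adjusted p of at most 0.05, and 0 to 120 with 1 replicate left out. The cause of these changes was not tested.

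Of the 76 transcripts called in Sham that were picked by the naming rule, 4 of them without a gene name, 63 lost the call without the replicate block, 4 with DESeq2, 26 without replicate 3, and 13, 9 and 7 without replicates 1, 4 and 5, while none did with RLE size factors or no low-count filter. The direction of these 76 held under each of these settings. Among transcripts not called, the log2FC of Fos was -0.0032 with only replicates 4 and 5 and -0.027 to 0.13 with 1 replicate left out, and that of Nefh was -0.0082 to 0.20. The median log2FC of GABA and glycine genes was 0.78 with only replicates 1 and 3, 0.24 with only 4 and 5, and 0.37 to 0.74 with 1 left out. That of glutamate genes was 0.51 with only 1 and 3 and 0.0064 to 0.37 with 1 left out, and that of microglia genes 0.11 to 0.23. No named gene of the GABA and glycine, glutamate, neuropeptide, voltage-gated channel or microglia lists was called in Sham without the replicate block. With only replicates 1 and 3 the median was -0.12 for large sensory and motor neuron genes and -0.68 for forebrain genes, which had -0.70 without the block, and with only 4 and 5 it was -0.045 for astrocyte genes. With 1 replicate left out, the mean difference (raphe minus LC) in reads ran from -1160420 to 13312 and in transcripts detected from -440 to 50. Without replicate 3, the rank of raphe for Th was 4 and that of LC for Neurod1 was 4. With 4 pools a region, transcripts with few reads were tested with little precision.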
